A study of Mus musculus with 4 samples.

Results

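Prostaglandins are short-lived lipid signals made from arachidonic acid, which phospholipases release from membranes. The cyclooxygenases Ptgs1, which most tissues carry all the time, and Ptgs2, which is switched on rapidly by cytokines, growth factors and injury, turn it into the unstable intermediate prostaglandin H2. Terminal synthases then make the individual prostanoids from it: Ptges makes prostaglandin E2, and Ptgis makes prostacyclin. Hpgd, also called 15-PGDH, oxidises prostaglandin E2 and related molecules and so ends their signal. In muscle, prostaglandin E2 is known to act on satellite cells through the receptor EP4, the product of Ptger4, and Hpgd is known as an enzyme whose activity limits prostaglandin E2 in aged muscle.

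These 5 genes, the cyclooxygenases, a pair of terminal synthases and the degrading enzyme, were looked up by symbol in the platform annotation, which names 12394 genes through probe sets with 1 symbol each. Of the 5, 4 had a probe set, with 7 probe sets in all. No probe set carried the symbol Ptgs1, so that gene was not analysed here. Of the 4 genes found, 3 passed the signal floor on 1 array or more, and Ptges was under it on every array. The set was chosen by name with earlier results in view, so the signals on these 4 arrays count among the values it was selected on, and they are given as a description.

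The arrays measured myogenic cells isolated directly, with no culture step, from hind-limb muscles of mice of the C57BL/6 strain, 8 to 12 weeks old, after injury by cardiotoxin (CTX), a toxin from snake venom that kills the fibres. The groups are CTX-2d, CTX-3d, CTX-5d and CTX-14d, that is, cells taken 2, 3, 5 and 14 days after the injection, with 1 array for each day. All groups share the strain, the age range and the injury, and none was uninjured. An antibody against satellite cells, SM/C-2.6, is named in the labels, which give neither its gates nor the number of animals behind a sample.

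With 1 array for each day there is no replicate check and no test, and a difference of 2-fold or more between a pair of arrays was taken as a call. Values are the authors' MAS5 signals, in arbitrary units, after scaling all arrays to 1 trimmed mean. Signals under 43.0, the median of all scaled values, were set to that floor before ratios were taken, so a ratio with 1 side under it is written "at least N-fold", and a pair with both sides under it was not measured. Between probe sets of the same gene with signals under 500, the SD of the log2 ratio was 0.38 for day 3 against day 2 (1307 genes), 0.40 for day 5 against day 3 (1450 genes) and 0.34 for day 14 against day 5 (1541 genes). This SD leaves out the spread between animals and between labellings. Of all calls, 78.8% were higher for day 3 against day 2 (52.6% with values as deposited, 20.9% with a common median). For day 5 against day 3 they were 66.1% (87.4% and 41.0%), and for day 14 against day 5 60.8% (50.5% and 48.3%). The comparisons share arrays, so a chance value on 1 array enters several of them. The labels of days 2 and 5 are worded 1 way and those of days 3 and 14 another, and whether they were processed in such sets was not stated in the labels. Every step between consecutive days, and day 14 against day 2, crosses these wordings. A difference between such sets could not be told apart from a difference between days there. Only day 5 against day 2 and day 14 against day 3 compare arrays with labels worded alike. Of 10 myogenic markers, 8 were above the floor on day 2, 9 on day 3 and 10 on days 5 and 14, the ones under it being Pax7 on day 2 (35.7) and Chodl on days 2 and 3 (15.8 and 32.8). Over all 12394 named genes, 6258, 6874, 7251 and 7439 were above it on days 2, 3, 5 and 14.

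The bases before the annotated starts of Ptgs2 and Hpgd are shown because these genes had the widest swings between arrays. RefSeq's table for GRCm38.p6 held a window for 4 of the 5 genes (Ptgs1, Ptgs2, Ptges and Hpgd). For Ptgs2 the 250 bases are chr1:150099781-150100030 on the plus strand, and for Hpgd they are chr8:56294302-56294551 on the plus strand. Capitals mark the matches to any of 7 motifs searched on both strands. The motifs were the CRE core TGACGT, the E-box CACGTG, the C/EBP palindrome TTGCGCAA, the muscle E-box CAGCTG, the TATA box TATAAA, and the NF-kappaB and CArG box consensus.
Ptgs2: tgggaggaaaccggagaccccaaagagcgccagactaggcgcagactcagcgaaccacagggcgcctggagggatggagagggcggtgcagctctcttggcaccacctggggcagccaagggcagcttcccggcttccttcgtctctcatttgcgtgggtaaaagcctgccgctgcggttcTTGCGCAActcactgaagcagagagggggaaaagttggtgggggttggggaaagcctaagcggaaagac
Hpgd: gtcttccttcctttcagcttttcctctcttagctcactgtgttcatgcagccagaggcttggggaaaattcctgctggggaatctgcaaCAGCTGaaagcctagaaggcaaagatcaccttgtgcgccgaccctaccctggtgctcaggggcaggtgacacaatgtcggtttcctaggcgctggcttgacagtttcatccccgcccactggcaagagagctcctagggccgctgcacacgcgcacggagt
The Ptgs2 window held the C/EBP palindrome from base 69 to base 62 before the start. Among 32851 such windows, counted with the 50 bases after the start, 0.183% held it. Within those 50 bases Ptgs2 also held the CRE core on the minus strand, at bases 13 to 18, sharing its last bases with an E-box at bases 17 to 22. The CRE core was found in 7.51% of all windows and the E-box in 7.15%. The Hpgd window held the muscle E-box from base 161 to base 156 before the start and a TATA box at bases 5 to 10 after it, motifs found in 16.3% and 13.6% of all windows. The Ptgs1 and Ptges windows matched none of the 7 motifs, which says only that these letters are not in those windows. A match is a description of the sequence and not evidence of binding.

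Ptgs2, the inducible cyclooxygenase, was high on 1 array of the 4. Its brighter probe set read 67.6, 62.7, 296 and 56.4 on days 2, 3, 5 and 14. Day 5 stood apart, and the other 3 arrays lay close together just above the floor. Day 5 was 4.72-fold above day 3 (log2 ratio 2.24), which ranked 115 from the highest of 7523 measured genes, and 4.38-fold above day 2. Day 14 was 5.25-fold below day 5 (log2 ratio -2.39), ranking 15 from the lowest of 7709. Day 3 against day 2 (log2 ratio -0.11) and day 14 against day 3 (log2 ratio -0.15) lay within the SD between probe sets, and the latter changed sign under other settings. The second probe set read 4.48, 26.1, 52.7 and 21.0 on days 2, 3, 5 and 14. It too was highest on day 5, the only array on which it passed the floor, and gave at least 1.23-fold for day 5 against day 3, short of a call. With the mean of both probe sets, day 5 was at least 2.41-fold above day 3. A profile with day 5 at least 2-fold above each other day was shared by 72 of 7930 genes above the floor on any array, or 0.908%.

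Ptges, the inducible synthase of prostaglandin E2 that often accompanies Ptgs2, was not above the floor on any array. Its brighter probe set read 16.3, 15.5, 24.9 and 23.5 on days 2, 3, 5 and 14, and the other read 1.69, 9.07, 10.9 and 21.5. No ratio was taken for it, and a transcript at a level under the floor could not be told from none. Being under the floor on every array was common, at 36% of all 12394 named genes.

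Ptgis, the prostacyclin synthase, was highest 2 days before Ptgs2. Its single probe set gave signals of 129, 479, 245 and 125 on days 2, 3, 5 and 14. Day 3 was the highest array, day 5 lay between, and days 2 and 14 were nearly equal (log2 ratio -0.05). Day 3 was 3.71-fold above day 2 (log2 ratio 1.89, rank 101 from the highest of 6991) and 3.84-fold above day 14. The later steps each fell just short of a call, at 1.96-fold lower for day 5 against day 3 and again 1.96-fold lower for day 14 against day 5, and other scalings took each past 2-fold. A profile highest on day 3 and at least 2-fold above days 2 and 14 was found in 80 of 7930 genes, or 1.01%.

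Hpgd, the enzyme of breakdown, was high on both middle arrays. Its brighter probe set read 11.6, then 250 and 302, then 33.6 on days 2, 3, 5 and 14. Days 3 and 5 were close to each other (1.21-fold), and days 2 and 14 both lay under the floor. Day 3 was at least 5.82-fold above day 2, and day 14 at least 7.04-fold below day 5. As bounds, these ranked 44 from the highest of 6991 genes and 3 from the lowest of 7709. The second probe set lay under the floor throughout, at 1.10, 12.8, 14.3 and 2.15, so the calls of Hpgd rest on the brighter probe set alone. These values had the same order of days, but under the floor such an order was not measured. Averaging both probe sets with the second entered at the floor gave 2.41-fold and 2.65-fold, which are not bounds, since the second was not measured. Days 3 and 5 both at least 2-fold above days 2 and 14 was the profile of 26 of 7930 genes, or 0.328%.

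**Figure D1:**
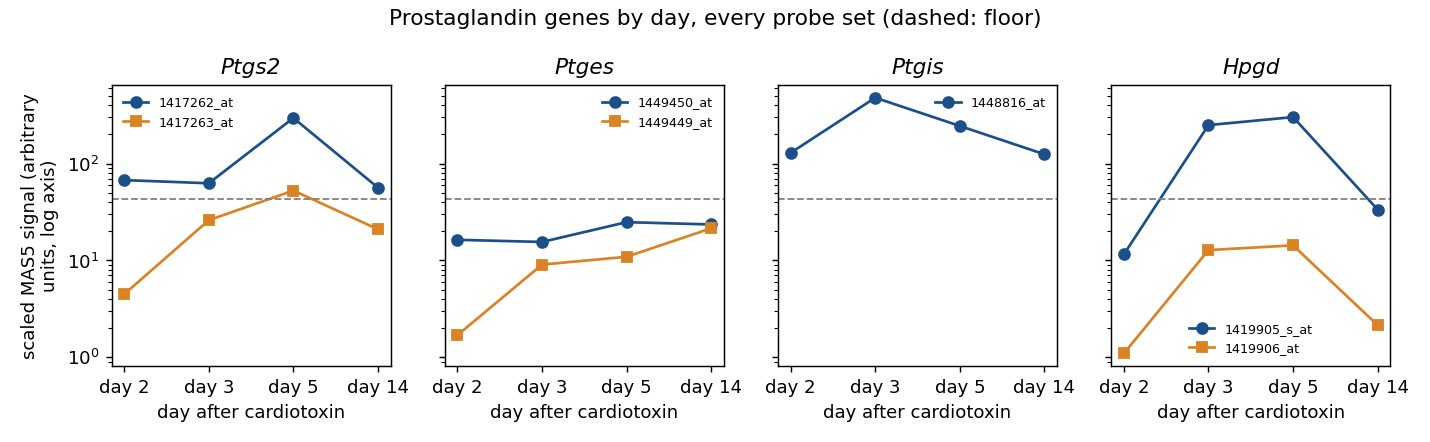
Scaled MAS5 signal (arbitrary units, log axis) of every probe set of Ptgs2, Ptges, Ptgis and Hpgd on the arrays of days 2, 3, 5 and 14, 1 array a day, with the floor of 43.0 dashed. Ptgs2 stands out on day 5 at 296, Ptgis on day 3 at 479 and Hpgd on days 3 and 5 at 250 and 302, while both probe sets of Ptges stay under the floor.

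Set side by side, these genes did not share a profile. On day 3 against day 2, Ptgis and Hpgd were higher and Ptgs2 was not called, that is, 2 of 3 measured genes were higher where 6.69% of all measured genes were. On day 5 against day 3 only Ptgs2 of the 3 was higher, where 11.6% of all genes were. On day 14 against day 5 Ptgs2 and Hpgd were lower and Ptgis was short of a call, where 3.1% of all genes were lower. Over the whole course, day 14 against day 2, neither of the 2 measured genes, Ptgs2 and Ptgis, was called, where 37.6% of all genes were. Between days whose labels are worded alike, day 5 against day 2 had Ptgs2 4.38-fold and Hpgd at least 7.04-fold higher, with Ptgis 1.90-fold higher and short of a call (19.8% of all genes were higher). Day 14 against day 3 had Ptgis 3.84-fold and Hpgd at least 5.82-fold lower, with Ptgs2 not called (11.5% of all genes were lower). As the genes were chosen with these arrays in view, nothing is read from these shares. On days 2 and 14, then, Hpgd was under the floor and Ptgis was at its lowest. Ptgs2 was just above the floor on days 2, 3 and 14 alike, and Ptges was under it on every array.

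Genes with the nearest profile were found by the distance between log2 signals over the 4 arrays, each gene centred on its mean. The nearest to Ptgs2 was Mmp9, a gelatin-degrading matrix protease, at a distance of 0.29, with 171 on day 5 and the other 3 arrays under the floor. Slc6a6, the taurine transporter, followed (0.36), with 1638 on day 5 and 357 to 409 otherwise. Mme, the cell surface peptidase neprilysin (0.38), and Plaat3, a phospholipase and acyltransferase of membrane lipids (0.45), read 157 and 237 on day 5. Mme was under the floor on the other 3 arrays and Plaat3 on days 2 and 3, so of these neighbours only Slc6a6 was above it throughout. The genes nearest to Ptgis were Gys1, the glycogen synthase of muscle (0.32), Reep1, which shapes the endoplasmic reticulum (0.33), the matrix protein Thbs1 (0.42) and the protease subunit Capn1 (0.48), with signals of 187, 349, 253 and 146 on day 3. For Hpgd, whose values on days 2 and 14 stand at the floor, the first neighbours were Tnnt2, a troponin T of heart and developing muscle (0.88), Chrng, the fetal subunit of the acetylcholine receptor (0.90), the giant sarcomere protein Ttn (0.999) and, just farther, the kinase Dclk1. All 4 of these were higher on day 3 than on day 5, whereas Hpgd was not. The distances rest on 4 arrays and describe these arrays only. Those that include values at the floor, as for Hpgd, Mmp9, Mme, Plaat3, Gys1 and Capn1, depend on where it lies. Ptgs2 and Ptgis, both above the floor on each array, were 2.29 apart.

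**Figure D2:**
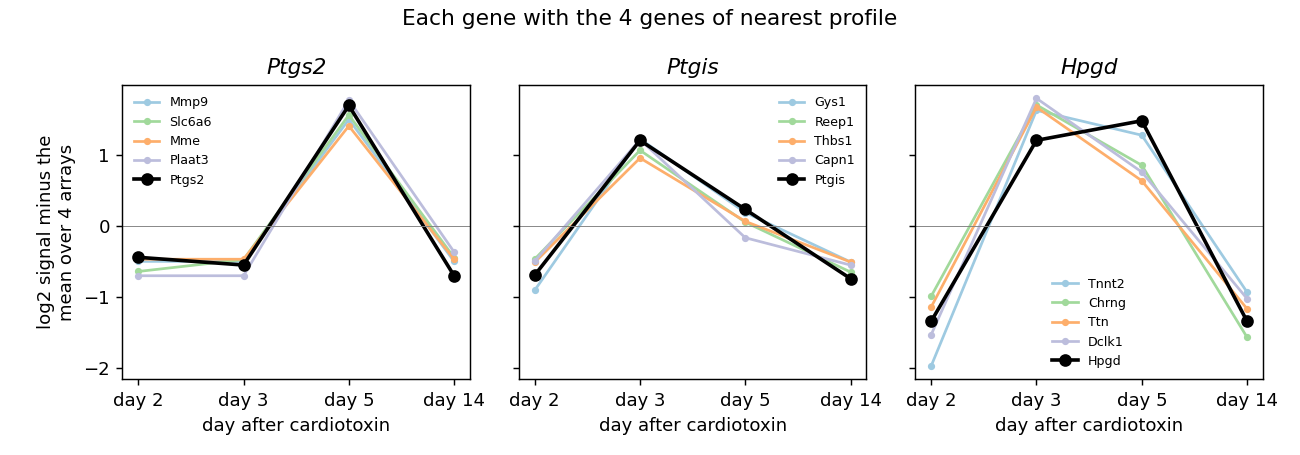
Log2 signal minus the gene's own mean over 4 arrays, by day, for Ptgs2, Ptgis and Hpgd (black) and the 4 genes nearest to each (colours), with signals under the floor set to it. The neighbours of Ptgs2 share its single high array on day 5, those of Ptgis its maximum on day 3, and those of Hpgd its high days 3 and 5 but with day 3 the higher.

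The other genes of the pathway were taken from a list of 48, of which 42 had a probe set and 17 passed the floor on 1 array or more. Over all 12394 named genes, 36% passed it on none. Of 14 measured on day 3 against day 2, 1 was higher and 1 lower. Of 16 measured on day 5 against day 3, 1 was higher and 2 lower, and of 17 on day 14 against day 5, 1 was higher and none lower. Shares called over all genes were 8.5%, 17.6% and 7.91% for these steps. The list's median log2 ratios were 0.22, 0.23 and 0.19, beside 0.06, 0.06 and 0.01 over all measured genes. Between days whose labels are worded alike, 3 of 16 were higher and 2 lower on day 5 against day 2. There, 1471 of all 7445 measured genes were higher and 848 lower. On day 14 against day 3, 4 of 17 were higher and 2 lower, and of all 7774 measured genes 1270 were higher and 896 lower.

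Supply of arachidonic acid begins with phospholipases. Of 10 phospholipase genes with a probe set, 3 passed the floor on any array, where 36% of all named genes passed it on none. Only 2 or 3 of them were measured at each step between consecutive days, and none was called there. Pla2g4a, the cytosolic phospholipase that is the usual source of arachidonic acid for cyclooxygenases, read 10.5, 16.7, 35.9 and 30.6, under the floor on each array. Pla2g15, a lysosomal phospholipase, read 46.2, 47.4, 94.2 and 99.6, and its step from day 3 to day 5 was just short of a call (log2 ratio 0.99). It was called higher on day 5 than on day 2 (2.04-fold), where 19.8% of all genes were higher. Day 14 was 2.15-fold above day 2, where 22.8% were higher, and 2.10-fold above day 3, where 1270 of 7774 were. Over the other settings these ratios fell as low as 1.10-fold, 1.16-fold and 1.16-fold.

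Among terminal synthases, those of other prostanoids followed courses unlike Ptgs2. Ptges2, a second, membrane-associated synthase of prostaglandin E2, read 420, 363, 157 and 117 on days 2, 3, 5 and 14. It was 2.32-fold lower on day 5 than on day 3, the step at which Ptgs2 was higher, and 3.58-fold lower on day 14 than on day 2. With values as deposited, the step to day 5 was short of a call (log2 ratio -0.91). Between days whose labels are worded alike, Ptges2 was 2.68-fold lower on day 5 than on day 2 and 3.09-fold lower on day 14 than on day 3. Ptgds, the lipocalin-type synthase of prostaglandin D2, read 94.7, 239, 61.3 and 119. Day 3 was its highest array, 2.53-fold above day 2, and day 5 its lowest, 3.91-fold below day 3. Its second probe set passed the floor on day 3 alone, at 58.6, and gave bounds short of a call, and with the mean of both probe sets or a common median day 3 was not called against day 2 (log2 ratios 0.89 and 0.84). Hpgds and Tbxas1, the synthases of prostaglandin D2 in blood cells and of thromboxane, lay under the floor on each array, at no more than 18.1. Prxl2b, a reductase that makes prostaglandin F2alpha, was not called between consecutive days but read 111, 138, 237 and 336 and was 3.04-fold higher on day 14 than on day 2 (log2 ratio 0.76, short of a call, with a common median). It was 2.13-fold higher on day 5 than on day 2 and 2.45-fold higher on day 14 than on day 3, and neither call held in every setting (1.28-fold and 1.93-fold at the lowest).

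Of the receptors, Ptger4 was the one called. EP4, its product, is a receptor for prostaglandin E2 that raises cyclic AMP. The brighter probe set read 113, 113, 315 and 758 on days 2, 3, 5 and 14, so the first arrays were equal and the signal then went up at each step. Day 5 was 2.80-fold above day 3 and day 14 2.40-fold above day 5, giving 6.69-fold for day 14 against day 2, where 22.8% of all genes were higher. The second probe set stayed under the floor, at 5.48, 7.82, 27.6 and 29.9, and with the mean of both probe sets, the second entered at the floor, neither step was called (log2 ratios 0.74 and 0.63). Between days whose labels are worded alike, Ptger4 was 2.79-fold higher on day 5 than on day 2, where 19.8% of all genes were higher. Day 14 was 6.72-fold above day 3, where 1270 of 7774 genes were higher. Over the other settings these fell as low as 1.67-fold and 2.59-fold. The other prostaglandin E2 receptors, Ptger1, Ptger2 and Ptger3, read at most 13.7 on any array, and the prostacyclin receptor Ptgir at most 16.8. Receptors for prostaglandin D2 and F2alpha (Ptgdr, Ptgdr2 and Ptgfr) were under the floor as well. Tbxa2r, the thromboxane receptor, read 5.58, 61.2, 54.8 and 32.2 and was not called.

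Removal of prostaglandins also takes a carrier and reductases. Slco2a1, the carrier that takes prostaglandins into the cell so that Hpgd can act on them, read 113 on day 2 and then 48.8, 43.8 and 50.7. It was 2.31-fold lower on day 3 than on day 2, the step at which Hpgd was higher, ranking 44 from the lowest of 6991 genes. Its other 2 probe sets were under the floor on each array, and the call was lost with their mean (log2 ratio -0.40), with a doubled floor (-0.39) and with 16 added in place of the floor (-0.99). Between days whose labels are worded alike, Slco2a1 was 2.57-fold lower on day 5 than on day 2 (1.31-fold at the lowest over the other settings). It was not called on day 14 against day 3 (1.04-fold). Ptgr1 and Ptgr2, reductases that act on the product of Hpgd, were not called between consecutive days, with Ptgr1 between 807 and 1195. The brightest probe set of Ptgr2 read 84.6, 129, 72.0 and 88.0 on days 2, 3, 5 and 14, and another read 31.0, 57.8, 64.8 and 93.1. They disagreed in course: the first was 1.79-fold lower on day 5 than on day 3 where the other was 1.12-fold higher, and the other was at least 2.17-fold higher on day 14 than on day 2 where the first was 1.04-fold higher. The last of its 3 probe sets was under the floor on each array.

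**Figure D3:**
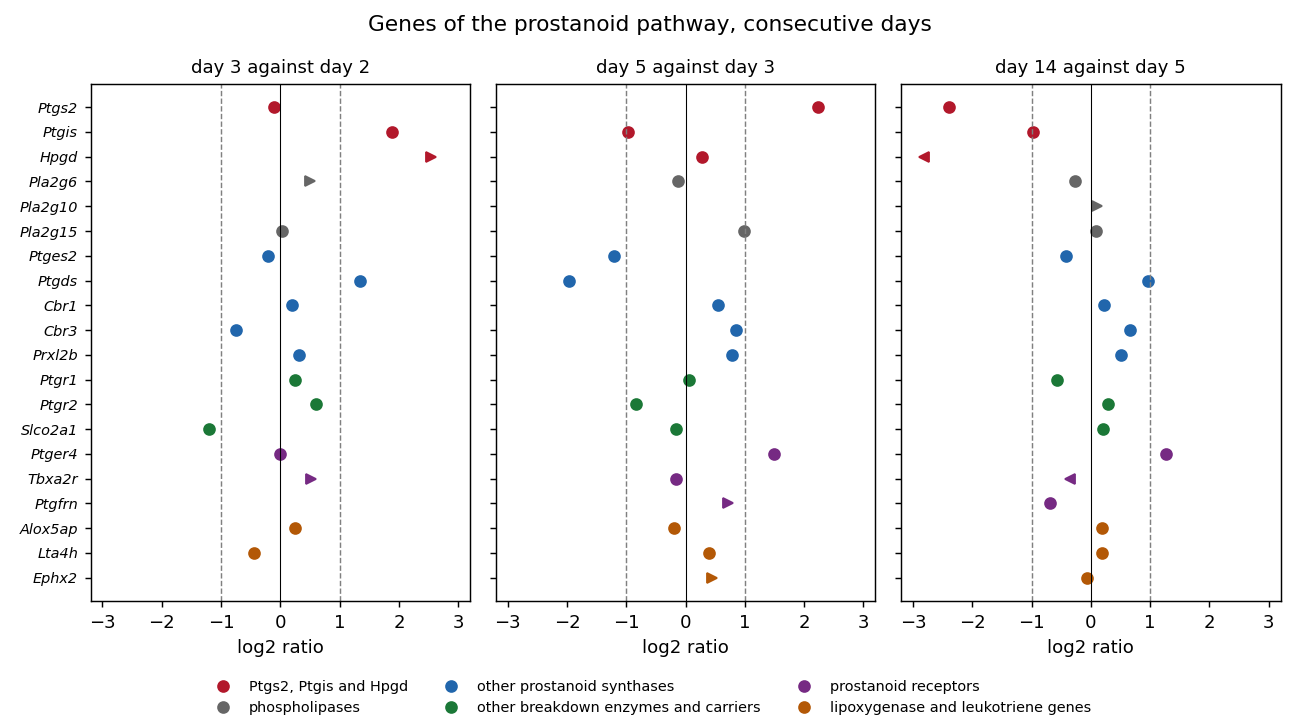
Log2 ratio of Ptgs2, Ptgis and Hpgd and of the 17 other pathway genes above the floor, for each step between consecutive days and coloured by role, with triangles for bounds (1 side at the floor), dashed lines at 2-fold and no point where both sides were at the floor. Hpgd has the widest ratios of the first and last steps and Ptgs2 of the middle step, while most of the other genes stay within 2-fold.

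**Figure D4:**
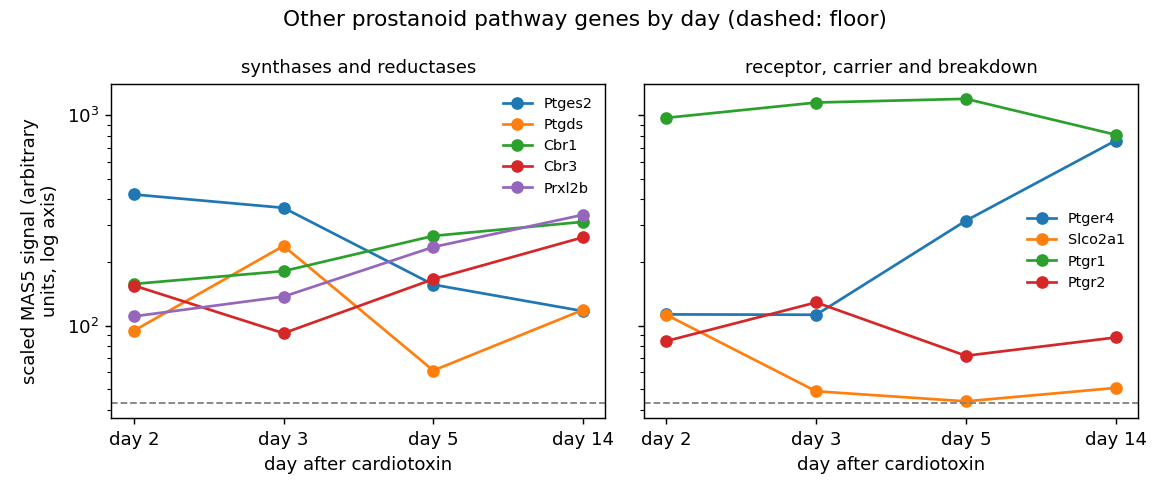
Scaled MAS5 signal (arbitrary units, log axis) by day for synthases and reductases on the left and for Ptger4, the carrier Slco2a1 and the reductases Ptgr1 and Ptgr2 on the right, 1 array a day, with the floor dashed. Ptger4 goes from 113 to 758 and Prxl2b from 111 to 336, while Ptges2 goes from 420 to 117 and Slco2a1 is highest on day 2.

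Ptgs2 belongs to the genes that cytokines and stress induce, so a list of 22 such genes was set beside it. On day 3 against day 2, 6 of 19 measured genes of the list were higher and 3 lower, where 8.5% of all genes were called. The 3 lower were the chemokines Cxcl1, Cxcl2 and Ccl2. Cxcl1 read 2233, 531, 1160 and 1939 on days 2, 3, 5 and 14, and Cxcl2 read 950, 152, 458 and 355. On day 5 against day 2, 13 of 20 were higher, where 19.8% of all genes were, and 1, Cxcl2, was 2.07-fold lower. On day 5 against day 3, 10 of 20 measured genes of the list were higher and none lower, where 11.6% of all genes were higher (a median of 1.03 in log2 ratio, against 0.06 over all genes). The widest were Cebpd (6.71-fold), Socs3 (5.29-fold), Atf3 (3.18-fold), Cxcl2 (3.01-fold), Ier3 (2.68-fold) and Il6 (2.64-fold). On day 14 against day 5, 8 were higher and 1, the interleukin-1 receptor Il1r1, was lower, where 4.81% of all genes were higher and 3.1% lower (median 0.68, against 0.01 over all genes). The list is mixed, and the 8 were the transcription factors Cebpb, Cebpd, Atf3, Fosb, Jun, Junb and Nr4a1 and the phosphatase Dusp1. The cytokine Il6 and the chemokine Cxcl1 were 1.38-fold and 1.67-fold higher at that step and the chemokines Cxcl2 and Ccl2 1.29-fold and 1.46-fold lower, none of them called. The transcription factors Cebpb and Cebpd, members of the family that binds the palindrome marked in the Ptgs2 sequence, read 53.0, 119, 163 and 850 and 133, 128, 861 and 2673 on days 2, 3, 5 and 14. Both were highest on day 14, and their part in the signal of Ptgs2 was not tested. The cytokine Il1b, an inducer of Ptgs2, read 34.5, 42.7, 74.9 and 53.1, highest on day 5 but not called, and Tnf lay under the floor on each array.

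Markers of other cell types also differed between the days, and in a bulk sample fewer cells of a type and less RNA per cell cannot be told apart. The count of genes above the floor also rose over all 12394 named genes, with 6258, 6874, 7251 and 7439 on days 2, 3, 5 and 14. Macrophage and monocyte markers, cells that can carry Ptgs2, had a summed signal of 270, 768, 2013 and 1952 on those days, with 3, 7, 10 and 10 of 12 above the floor. Ptprc, the pan-leukocyte antigen, read 13.1, 14.1, 59.7 and 54.5, and Itgam was under the floor throughout. At the step to day 5, 7 of 10 measured macrophage markers were higher and none lower, where 11.6% of all genes were higher, the list's median being 1.26 (log2 ratio), and their part in the higher Ptgs2 was not tested. At the step to day 14 none of 10 was called (median -0.10), where 7.91% of all genes were. All 7 neutrophil markers with a probe set lay under the floor on each array, and of 10 mast cell and platelet markers 2, Pf4 and Itga2b, passed it. Endothelial markers, from cells known for Ptgis, had none of 9 above the floor on days 2 and 3, and 2 and 4 above it on days 5 and 14 (summed signal 85.6, 112, 232 and 628), and their part in the signal of Ptgis was not tested. Mural and smooth muscle markers, from cells that also make prostacyclin, had summed signals of 884, 4114, 9669 and 9910. Most of that sum was Acta2, an actin that myogenic cells can also express (750, 3596, 7744 and 6176), and the other 7 genes summed to 134, 518, 1926 and 3733. Of 5 measured at the step to day 3, 3 were higher and none lower, where 6.69% of all genes were higher, and of 6 at the step to day 5, 4 were higher and none lower, where 11.6% were. Their part in the signal of Ptgis was not tested. Fibro-adipogenic and fibroblast markers had summed signals of 761, 2643, 7602 and 17422, highest on day 14, and without Gsn, the brightest of them, 565, 791, 4060 and 10188. Of 8 measured at the step to day 5, 5 were higher and none lower, where 11.6% of all genes were higher. Of 9 at the step to day 14, 3 were higher and none lower, where 4.81% were higher. Members differed in course, and Mfap4 read 810 on day 5 and 529 on day 14. RNA length, read as the signal of the control probe set at the 3' end of Gapdh over that at its 5' end, gave 2.17, 1.88, 2.87 and 2.84 on days 2, 3, 5 and 14. The same ratio for Actb gave 1.80, 2.20, 2.19 and 2.14, so the controls ordered the days differently.

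**Figure D5:**
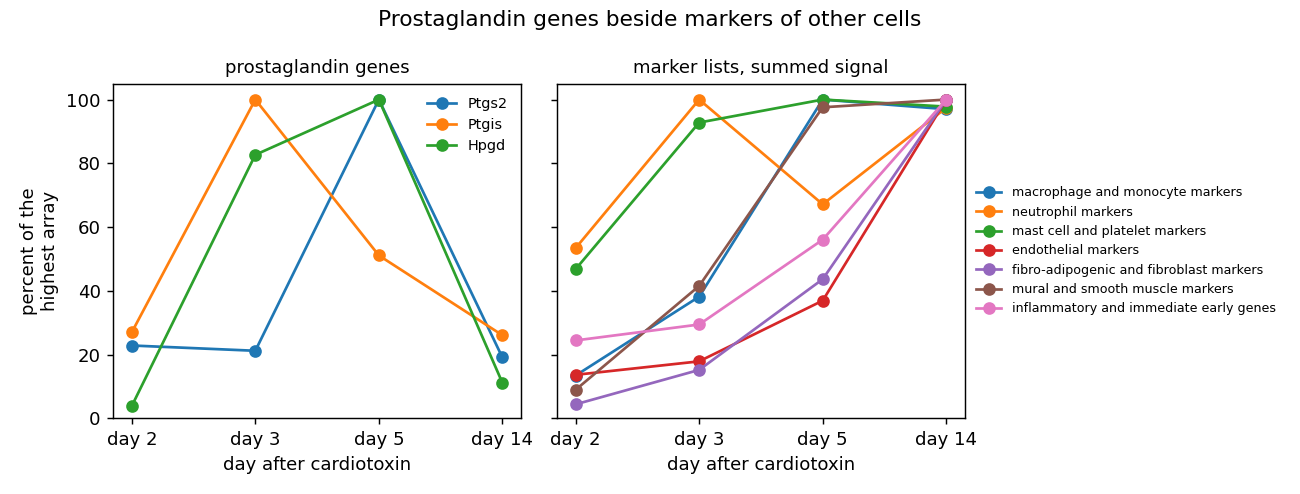
Signal by day as a percent of the highest array, for Ptgs2, Ptgis and Hpgd on the left and for the summed signal of each marker list and of the inflammatory and immediate early list on the right, 1 array a day. The prostaglandin genes peak on day 3 or day 5 and are low on day 14. The summed signals of the macrophage, mural, endothelial, fibroblast and immediate early lists are at or near their highest on day 14. A sum follows the brightest genes of its list, and single members can differ from it. The neutrophil markers are all under the floor.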

How the data were processed

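The deposited values are signal intensities, 1 per probe set and array of the Affymetrix mouse 430A design, made by the authors with MAS5, per the submitters' processing notes. Their other settings were not stated. RNA was labelled by a small sample assay, per the labels' protocols. Assays of this kind amplify the RNA and favour probe sets near the 3' end. Precision is limited by the number of arrays.

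Arrays were brought to 1 common 2% trimmed mean (factors 0.997, 1.13, 0.917 and 0.976 on days 2, 3, 5 and 14), signals under the pooled median of 43.0 were set to it, and log2 signals were subtracted. Where a gene had several probe sets, the brightest by mean log2 signal represented it. Of 22690 probe sets, 20393 had 1 symbol, and 691 had several and were left out. No test was possible with 1 array a day, and calls rest on 2-fold.

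The members and lists were chosen with earlier results of these data known. Named genes were the members with every probe set, pathway genes called between consecutive days and others of a described role, up to 6 inflammatory genes, and the 4 nearest profiles for each member above the floor, passing over clones and unnamed transcripts. The call rule was tried on simulated data, with changes planted only in genes brighter than 500 on the day 2 array. Ptgs2, Ptges, Ptgis and Hpgd read under 500 on each array, so the trial does not show how the rule performs for them. Alternatives were values as deposited, a common median, quantile normalisation, a floor at 0.5 or 2 times the median, 16 added in place of a floor, and the mean over probe sets, with those under the floor entered at it. Python 3.11.15, numpy 2.4.6, pandas 2.3.3 and matplotlib 3.10.9 were used.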

Additional observations from a re-analysis of the deposited data

How the results depend on the processing

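Across 7 other settings, 109 of 116 ratios of Ptgs2, Ptgis and Hpgd kept their side of 2-fold, 7 passed it anew, and no called ratio lost its call or changed direction. Ptgis on day 5 against day 3 passed it with a common median (log2 ratio -1.20) and with quantile normalisation (-1.03), which raised the count of called genes at that step from 1 to 2 in both. Ptgs2 on day 14 against day 2 passed it with a common median (-1.10), which raised that count from 0 to 1. Of the other pathway genes, the count of day 3 against day 2 went from 2 to 1 with the doubled floor and to 0 with the mean over probe sets. That of day 5 against day 3 went from 3 to 5 with values as deposited, and that of day 14 against day 5 from 1 to 0 with the mean over probe sets. On day 14 against day 2 it went from 5 to 8 with the lower floor and to 3 with the doubled floor and with the mean over probe sets. Of 288 ratios of 7 other named pathway genes, 38 lost their call, 6 gained one and none called changed direction. The 288 include ratios that were not called at first and so had no call to lose, so the share of calls lost was larger than 38 of 288. The cause of the scaling differences was not tested. A common median moved the median log2 ratio of all genes on day 14 against day 2 from 0.20 to -0.57. Ratios of Hpgd rest on the floor: day 3 against day 2 ranged from 2.91-fold to 11.6-fold over the settings other than the mean over probe sets, which enters the unmeasured second probe set at the floor. No paired analysis was possible because each group has 1 array.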

Other observations

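The lipoxygenase branch, which turns the same arachidonic acid into leukotrienes, had few genes above the floor on these arrays. Of 11 genes with a probe set, 3 were above the floor on any array, where 36% of all 12394 named genes were above it on none. No gene of the branch was called between any pair of days compared. Only 2 or 3 genes were measured for each pair. Over all genes, the share called ranged from 7.91% (day 14 against day 5) to 37.6% (day 14 against day 2). The 11 did not include Alox5, the 5-lipoxygenase itself, so that enzyme was not analysed here. Lta4h, which makes leukotriene B4, read 891, 653, 863 and 985 on days 2, 3, 5 and 14. Alox5ap, the partner protein of 5-lipoxygenase, read 51.7, 61.1, 53.3 and 60.7, and Ephx2, the soluble epoxide hydrolase, 13.0, 39.2, 58.3 and 55.9. Alox12, Alox15, Ltc4s and the leukotriene receptors Ltb4r1, Cysltr1 and Cysltr2 were under the floor on each array. The carbonyl reductase Cbr1, which can reduce prostaglandin E2, read 158, 182, 267 and 311. The carbonyl reductase Cbr3 read 155, 92.1, 166 and 263 and was 2.86-fold higher on day 14 than on day 3.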
